A study of Mus musculus with 12 samples.

Results

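Hematopoietic stem cells (HSCs) that had won a competition in irradiated marrow were compared with HSCs of the same mutant p53 genotype that had met no competitor. The winners are the 2 arrays titled mp53 (mosaic) + IR and the controls are the 2 arrays titled mp53 + IR. These 4 of the 12 arrays of the series were compared, chosen by title alone. Normalization, the detection filter and the tests drew on all 12 arrays. Both groups carried R26-mp53, an allele for mutant p53 that the mosaic mice expressed together with GFP. Winner cells were the R26-mp53 cells of mosaic mice, where GFP-negative WT cells shared the marrow, and control cells came from fully recombined R26-mp53 mice. Both groups had been exposed to 2.5 Gy and were taken 3 weeks later, while strain, sex, age and number of mice are not stated. Lineage-negative marrow cells that bore c-Kit, Sca-1 and CD150 but not CD48 were sorted straight into Trizol, 200 cells an array, and their RNA was amplified over more than 1 round before it was hybridised to Illumina mouse bead arrays. The arrays of a group are labelled biological replicates without stating whether they came from separate mice or pools, so every test below measures the spread between these samples. Competition and the kind of mouse (mosaic or fully recombined) cannot be told apart in this comparison.

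HSCs sit at the top of blood formation, dividing rarely, renewing themselves and feeding the myeloid, erythroid, megakaryocyte and lymphoid lineages. Their identity rests on transcription factors such as Meis1, Gata2 and the Hox proteins, and they share several surface proteins with blood vessel lining. The imprinted proteins necdin and p57 hold HSCs in quiescence. p53, which arrests or kills damaged cells, also sets how well a stem cell competes with its neighbours after mild irradiation, where cells with less p53 activity expand at the cost of the others.

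Genes of HSC identity lay lower in winners in both replicate numbers. Granulocyte, erythroid, mitosis, monocyte and B lineage genes lay higher in both replicate numbers by their medians, and by more in replicate 1. Without control replicate 1 the median log2 differences were 0.05 for granulocyte, 0.03 for erythroid and -0.01 for mitosis genes. They were 0.43 for monocyte and 0.72 for B lineage genes, with a detection filter that favoured the B lineage result. No single gene passed the test: limma called 0 of 13512 probes at an adjusted p under 0.05 (0% of the probes tested), the smallest adjusted p was 1.00, and 394 probes (2.92%) had an unadjusted p under 0.05. If nothing differed, 675.6 probes would have an unadjusted p under 0.05, more than the 394 found. That fit leaves out the replicate number. With the number as a block in the limma fit, 760 probes had such a p and 0 were called. The median standard error of a difference was 0.44 on the log2 scale. All differences below are therefore descriptions of these 4 arrays, given as winner minus control on the log2 scale of normalized intensity, within replicate 1, within replicate 2 and as the mean of both. Counted by gene, 1.89% were lower and 1.31% higher in winners at an unadjusted p under 0.05. Over 8374 genes the median difference was -0.05, with 56.2% of genes lower and 43.8% higher in winners. In 36.3% of genes the winner was lower in both replicate numbers, and in 26.8% it was higher in both.

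The control arrays were unlike each other. Over the kept probes the winner arrays correlated at 0.920 and the control arrays at 0.829, while winner and control correlated at 0.859 within replicate 1 and at 0.975 within replicate 2. The differences therefore spread more widely over genes in replicate 1 (SD 0.938) than in replicate 2 (SD 0.376). Control replicate 1 held almost no granulocyte signal: the summed intensity of 32 measured granulocyte genes was 1676 there, against 73418 in control replicate 2 and 73797 and 71874 in winner replicates 1 and 2. The Y-linked Eif2s3y stood at 4.23 in control replicate 1 and at 7.95, 8.77 and 7.89 on control replicate 2 and the winner arrays. Xist, the RNA of the inactive X chromosome, was 7.94 and 5.64 in controls and 6.36 and 5.27 in winners, so the arrays of replicate 1 differed in sex-linked transcripts too. The part of these differences in the results below was not tested, and medians without control replicate 1 are given beside most of the lists.

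**Figure D1:**
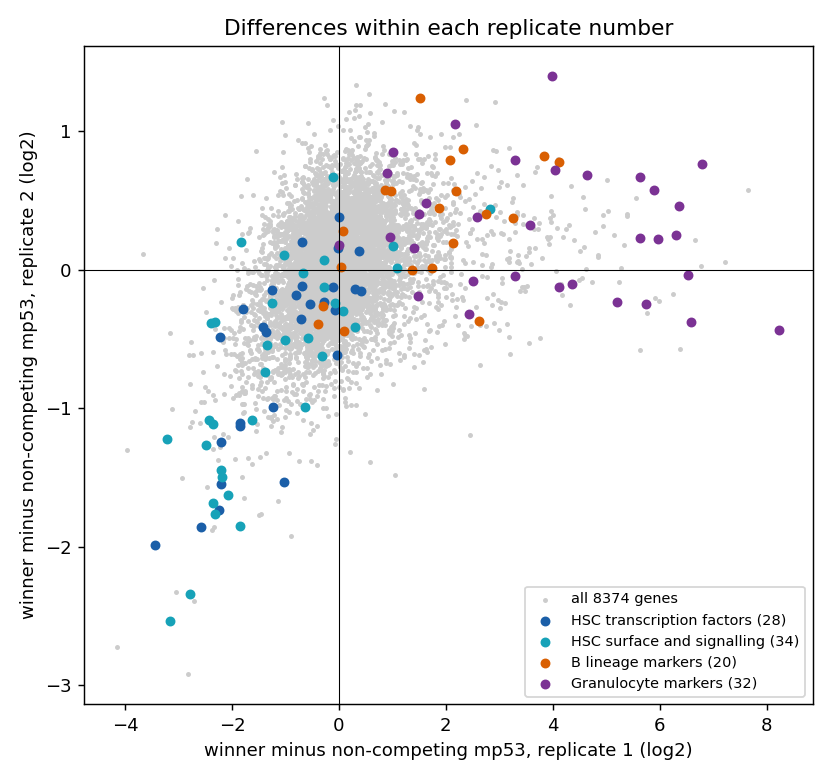
Winner minus control for each of 8374 genes (grey) within replicate 1 (horizontal axis, log2) and replicate 2 (vertical axis, log2), with 4 gene lists in colour. HSC genes extend into the lower left, where both replicates are negative, whereas granulocyte genes extend to the right along the horizontal axis, with a median of 4.02 in replicate 1 and 0.24 in replicate 2.

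The genes of the sort themselves gave a mixed check. Kit, the receptor for stem cell factor, was detected on all 4 arrays, at 7.0 and 6.14 in controls and 5.57 and 5.92 in winners. The CD150 gene Slamf1 was not detected on any of the 4 arrays. Cd48, whose protein the gate excluded, was at 4.66 and 5.78 in controls, where it was detected on 1 array, and at 7.95 and 6.05 in winners, where it was detected on both. Cd34, a sialomucin that long-term mouse HSCs largely lack, was 7.55 and 6.51 in controls and 6.17 and 5.90 in winners. Of 13 measured genes for the gate and for progenitor surface proteins, 8 were higher and 5 lower (median 0.66, but 0.11 without control replicate 1 and -0.07 over probes detected on all 4 arrays). The gene for the Sca-1 protein and the endogenous p53 gene were not analysed here.

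The genes with the most repeatable decrease were taken as those with the largest value of the smaller of their 2 within-replicate differences. The first of them were Wfdc2, Ndn and Robo4, and their promoters are shown for orientation. Each line holds the 250 bases before the RefSeq start, read 5′ to 3′ on the gene's strand (assembly GRCm38.p6, plus strand for each), at chr2:164562465-164562714 for Wfdc2, chr7:62348027-62348276 for Ndn and chr9:37401722-37401971 for Robo4. Capitals mark AGGAAG on either strand, a core with flanks that ETS proteins such as Fli1 and Erg can bind.
Wfdc2: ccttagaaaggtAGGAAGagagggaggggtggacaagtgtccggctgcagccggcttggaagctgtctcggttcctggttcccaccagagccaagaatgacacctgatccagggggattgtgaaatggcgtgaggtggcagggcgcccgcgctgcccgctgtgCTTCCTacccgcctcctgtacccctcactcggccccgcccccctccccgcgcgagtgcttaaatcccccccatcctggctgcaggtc
Ndn: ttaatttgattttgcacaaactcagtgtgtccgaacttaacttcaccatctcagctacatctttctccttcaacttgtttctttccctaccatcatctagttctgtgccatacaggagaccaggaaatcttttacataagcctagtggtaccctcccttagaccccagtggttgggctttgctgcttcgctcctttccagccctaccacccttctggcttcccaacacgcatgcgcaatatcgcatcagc
Robo4: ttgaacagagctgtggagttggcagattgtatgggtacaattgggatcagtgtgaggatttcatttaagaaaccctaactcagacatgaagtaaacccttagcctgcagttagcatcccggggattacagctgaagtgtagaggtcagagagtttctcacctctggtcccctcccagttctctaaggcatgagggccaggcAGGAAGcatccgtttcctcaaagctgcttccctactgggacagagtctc
AGGAAG was present in these windows for Wfdc2 and Robo4 and not for Ndn. Of the 12 genes with the most repeatable decrease, 11 had a promoter entry and 4 of these held AGGAAG, against 29.2% of 27025 promoters of the same length. AGATAA, which GATA proteins can bind, was in 1 of the 11 (10.3% of all promoters), and TGACAG, which MEIS proteins can bind, was in 0 (16% of all).

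Ndn encodes necdin, a growth suppressor that keeps HSCs quiescent. It was 9.54 and 8.28 in controls and 5.39 and 5.55 in winners. Each winner array lay below each control array, and also below all 10 other arrays of the series, which held Ndn at 7.58 or more. The difference was -3.43 (SE 0.53, unadjusted p = 0.000146 in limma, a 10.8-fold lower level), the smallest p of any named probe. Wfdc2, which encodes a secreted protein with protease-inhibitor domains, was 8.83 and 8.38 in controls against 6.0 and 5.46 in winners. Its difference, -2.83 in replicate 1 and -2.92 in replicate 2, was even between the replicates.

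Robo4 is a guidance receptor of the vessel lining that also anchors HSCs in their niche. Its brighter probe was 9.43 and 7.87 in controls and 6.27 and 5.34 in winners, a difference of -2.85 (SE 0.69). A second Robo4 probe, which was near the detection limit at 4.54 to 4.80 on all 4 arrays, differed by 0.02, so the decrease rests on 1 probe. Among the 12 genes with the most repeatable decrease were 3 collagen genes, grouped here after their values were seen. Col4a2 was 8.25 and 7.52 in controls against 5.20 and 5.19 in winners. Col16a1 and Col4a1 were detected on both control arrays and on neither winner array, which makes them at least 5.66-fold and at least 3.47-fold lower in winners. Sparc, a collagen-binding matrix protein, went the other way: it was detected on both winner arrays (5.14 and 5.34) and on neither control array, at least 1.52-fold higher. The detection filter favours such a result where it kept a probe through the winner group alone.

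**Figure D2:**
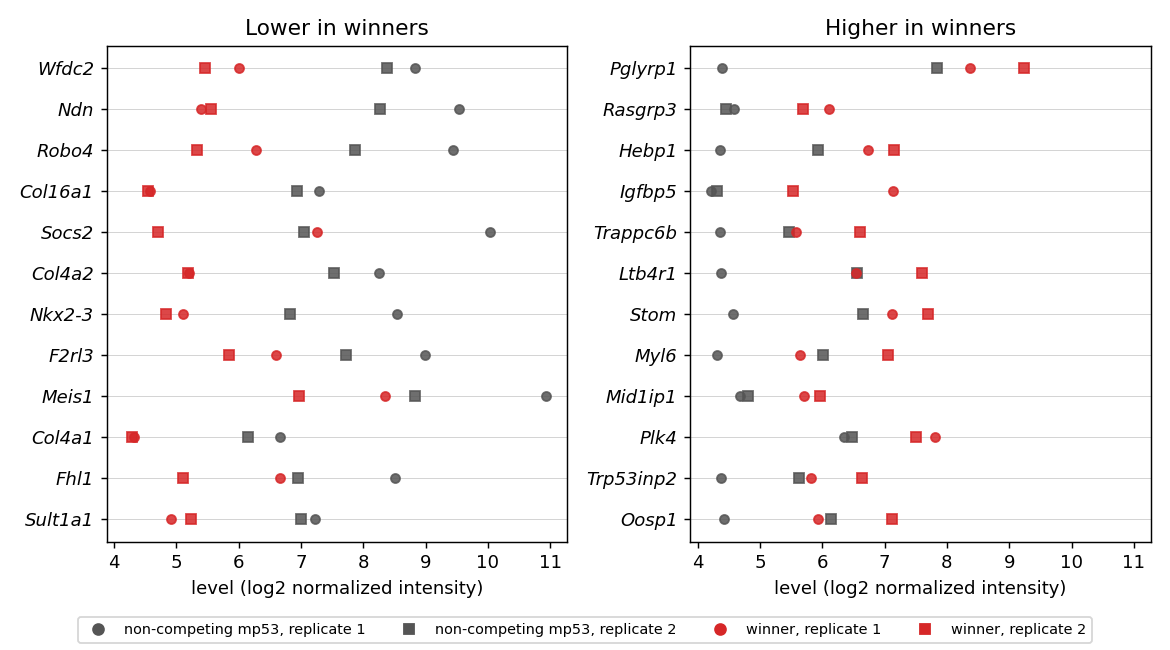
Levels on the 4 arrays (log2 normalized intensity) of the 12 genes most repeatably lower and the 12 most repeatably higher in winners; grey marks are controls, red marks winners, circles replicate 1 and squares replicate 2. Ndn, Wfdc2 and Col4a2 show tight red pairs far below both grey marks, while for several of the higher genes control replicate 2 lies beside or above a winner array.

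HSC transcription factors were lower as a group. This list and those below were chosen with earlier results of these data known. Shares over all genes, given beside their counts, are therefore a description and no independent test. Of 28 measured members of 41 on the array, 23 were lower in winners and 22 were lower in both replicate numbers, with a median of -0.62 (-0.91 in replicate 1 and -0.32 in replicate 2). In 16 of the 28 both winner arrays lay below both controls, against 16.8% of all genes. At least a 2-fold decrease in both replicates was found in 8 of the 28, against 0.812% of all genes, and 0 passed the adjusted test. Without control replicate 1 the median was -0.31 with 24 of 28 lower, and under median scaling of the arrays it was -0.35 with 18 of 28 lower.

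Nkx2-3, a homeodomain factor, showed the largest decrease of this group, from 8.54 and 6.82 in controls to 5.10 and 4.83 in winners. Meis1, the Hox cofactor that HSCs need for their maintenance, was 10.93 and 8.83 against 8.35 and 6.97, and both of its probes were lower. For both genes every winner array lay below every control array.

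Hox genes of the A and B clusters took part. Hoxa7 was 8.08 and 7.85 in controls against 5.85 and 6.11 in winners, with little spread within either group and a difference of -1.99 (SE 0.59). Hoxa5 was 7.62 and 6.25 against 5.41 and 5.0. Hoxb5, whose expression marks long-term HSCs in mice, was 8.0 and 6.08 against 5.80 and 4.53, where the groups do not overlap but control replicate 2 is only slightly above winner replicate 1.

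Genes for HSC surface proteins and signalling were lower still. This list, too, was chosen with earlier results known. Of 34 measured members of 47 on the array, 30 were lower and 25 were lower in both replicate numbers, with a median of -0.88 (-1.36 and -0.52). Both winner arrays lay below both controls in 21 of the 34, against 16.8% of all genes, and below all 10 other arrays in 15, against 4.12% of all genes. At least a 2-fold decrease in both replicates was found in 13, against 0.812% of all genes. A lower level with an unadjusted p under 0.05 was found in 12, against 1.89% of all genes. Without control replicate 1 the median was -0.51 with 28 of 34 lower. Median scaling gave -0.57 with 27 of 34 lower. These are bulk samples, so fewer cells that express a gene and less of its RNA in each cell cannot be told apart.

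Several of these proteins are shared with endothelium. Esam, an adhesion molecule of tight junctions that marks HSCs, was 7.81 and 5.97 in controls and 5.73 and 4.34 in winners, where 1 array detected it. Emcn, the sialomucin endomucin, was 8.38 and 6.45 against 6.02 and 5.34. Vwf, the von Willebrand factor that marks platelet-biased HSCs, was 8.98 and 7.43 against 6.78 and 5.99. In each of these 3 genes the groups were separate, and both winner arrays were the lowest of the 12.

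The rest of the group had varied roles. Ctnnal1, which encodes alpha-catulin and marks HSCs, was 9.05 and 7.24 in controls and 6.70 and 5.56 in winners. Sult1a1, a sulfotransferase, showed tight groups, at 7.23 and 6.99 against 4.91 and 5.23 (difference -2.04, SE 0.52). Il11ra2, a receptor subunit for interleukin 11, was also tight, at 9.47 and 9.26 against 7.84 and 8.17 (-1.36, SE 0.33).

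Other members differed as much within each replicate but stood close between groups. Socs2, an inhibitor of cytokine signalling, was 10.03 and 7.05 in controls and 7.25 and 4.70 in winners. Fhl1, a LIM domain protein, was 8.50 and 6.95 against 6.66 and 5.11. For Socs2 winner replicate 1 was above control replicate 2, for Fhl1 it was just below, and for both genes replicate 1 was above replicate 2 in each group.

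F2rl3, the thrombin receptor PAR4, was outside these lists and was 8.99 and 7.73 in controls against 6.60 and 5.84 in winners. The interleukin 6 signal transducer Il6st went against the trend: it was detected on both winner arrays, at 4.90 and 4.94, and on neither control array, at least 1.21-fold higher. That result, too, is of a kind that the detection filter can favour.

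The imprinted growth regulators were lower too: 11 of 11 measured members of 26 on the array, with a median of -0.71 (-1.36 and -0.30), and 10 of them in both replicates. Under median scaling 9 of the 11 were lower (-0.45), and without control replicate 1 it was 10 of 11 (-0.37). Cdkn1c encodes p57, a CDK inhibitor that holds HSCs in G0. It was 9.33 and 7.53 in controls and 6.20 and 6.52 in winners, below all 10 other arrays. Grb10, an adaptor that dampens growth factor receptors, was 8.63 and 7.04 against 6.47 and 6.29. Mkrn3, a neighbour of Ndn in the imprinted cluster, was 6.30 and 5.54 against 4.49 and 4.78, and was detected on 1 winner array. Both winner arrays lay below both controls in 8 of the 11, including these 3 and Ndn, against 16.8% of all genes, but the decrease in replicate 2 was over 2-fold only for Ndn and Cdkn1c. Other members such as Gnas, which encodes a G protein subunit, were 6.16 and 5.23 in controls and 5.08 and 4.36 in winners.

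**Figure D3:**
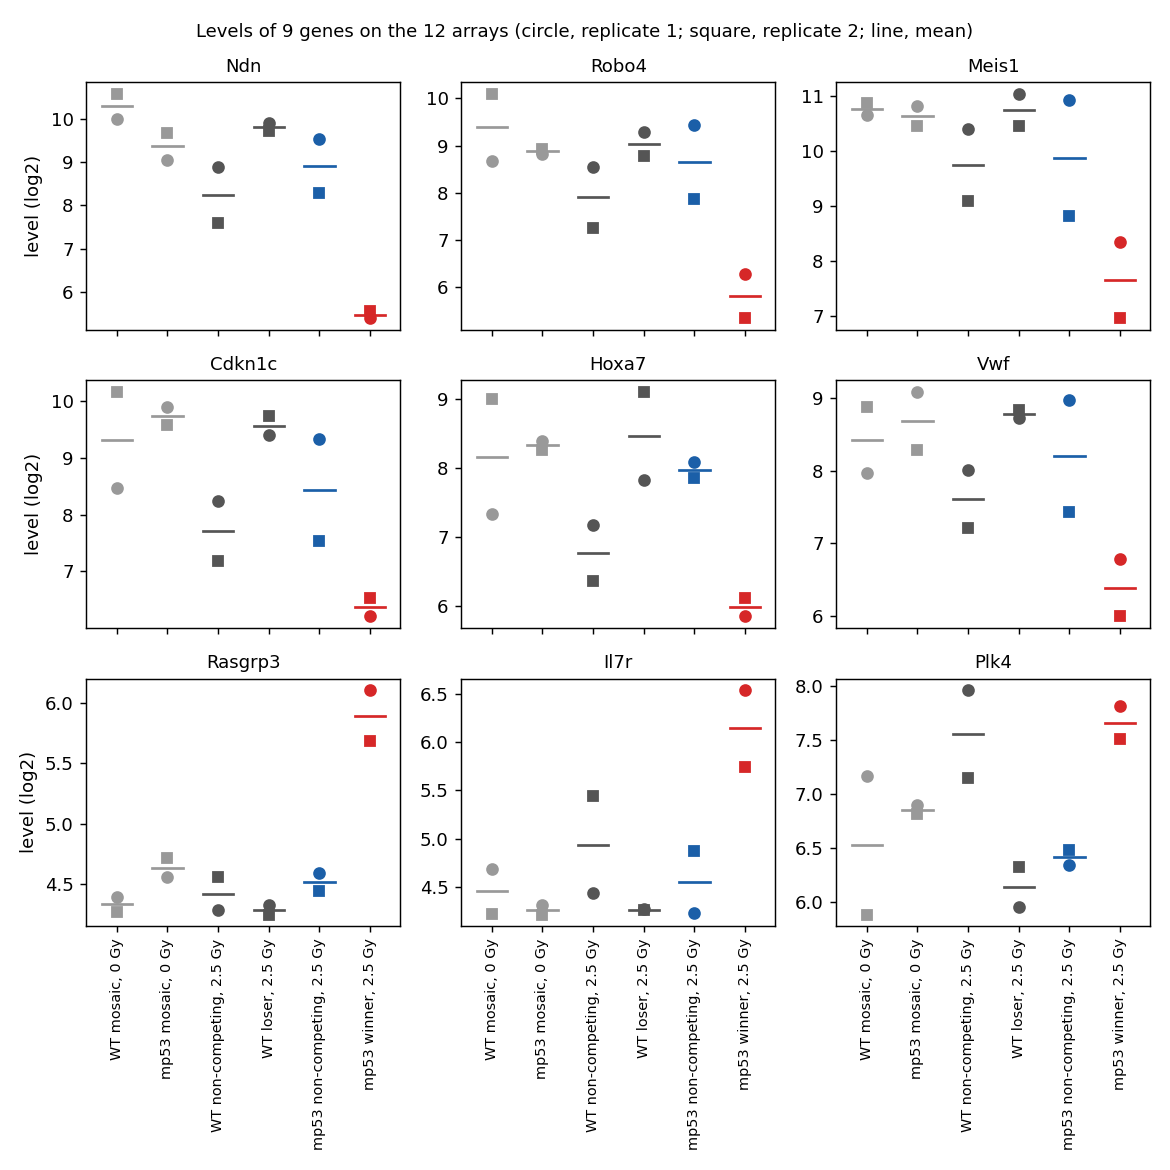
Levels of 9 genes (log2) on all 12 arrays, grouped by genotype and treatment; circles are replicate 1, squares replicate 2 and lines the mean of each group. Winner arrays (red) are the lowest of the 12 for the 6 HSC genes in the upper rows and the highest for Rasgrp3 and Il7r, while Plk4 in winners reaches the level of non-competing WT cells.

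Platelet and megakaryocyte genes, many of which are active in HSCs, were lower in 14 of 18 measured members (median -0.55, and -0.69 and -0.58 within replicates). That median depended on single arrays: without control replicate 1 it was 0.02, with 10 of 18 members higher, and without winner replicate 2 it was -0.02. P2rx1, an ATP-gated channel of platelets, was the tightest member, at 7.53 and 7.19 in controls and 6.20 and 6.13 in winners. F2r, the thrombin receptor PAR1, was 11.56 and 9.55 against 9.79 and 8.66, and Selp, the adhesion molecule P-selectin, was 8.41 and 5.89 against 6.59 and 5.01. F2r and Selp overlapped between the groups. Itgb3, the platelet integrin chain, was detected on both winner arrays and on neither control array, at least 1.42-fold higher. The detection filter kept 2 of the 18 members through the winner group alone, which favours a higher level in winners.

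B lineage genes were higher in winners. Of the 33 on the array, with no filter on detection, 29 were higher (median 0.53). The filter kept 20 of them, 11 through the winner group alone, and a gene kept that way is bound to lie higher in winners. Over the other 9 kept members the median was 0.18, with 6 higher. Over all 20 it was 1.14 (1.81 in replicate 1 and 0.39 in replicate 2), and 0.72 without control replicate 1. Both winner arrays lay above both controls in 14 of the 20, against 12.1% of all genes, and above all 10 other arrays in 10, against 4.06%, counts that the filter helps to set. The other lymphoid lists did not repeat this: lymphoid priming genes were higher in 8 of 13 (median 0.34, with 0.75 in replicate 1 and -0.10 in replicate 2), and T and NK cell markers in 10 of 13 (0.17, with 0.88 and -0.01).

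Rasgrp3 encodes a Ras exchange factor downstream of the B cell receptor. It was detected on neither control array (4.59 and 4.45) and on both winner arrays (6.11 and 5.68), at least 2.39-fold higher, with an unadjusted p of 0.000515 in limma. Il7r, the interleukin 7 receptor chain of lymphoid progenitors, was 4.22 and 4.87 in controls, with 1 array detected, and 6.54 and 5.74 in winners. Fcrla, an Fc receptor-like protein of B cells, was 4.32 and 4.79 against 6.39 and 5.58. For these 3 genes both winner arrays were the highest of the 12. The filter favours such a rank in the 11 members kept through the winner group alone.

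Members with higher levels differed mostly in replicate 1. Blnk, the linker of B cell receptor signalling, was 4.56 and 6.66 in controls and 8.69 and 7.43 in winners, 4.13 above the control in replicate 1 and 0.78 above it in replicate 2. Fcmr, the IgM Fc receptor, was 4.65 and 5.97 against 8.48 and 6.79. Cd79a, which encodes a signalling subunit of the B cell receptor and defines B cells, was near the detection limit, at 5.21 and 4.90 in winners and undetected in controls, at least 1.33-fold higher. Summed over the 20 members, intensity was 477 and 819 in controls and 2804 and 1120 in winners. The part that B cells in the sort had in this was not tested.

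**Figure D4:**
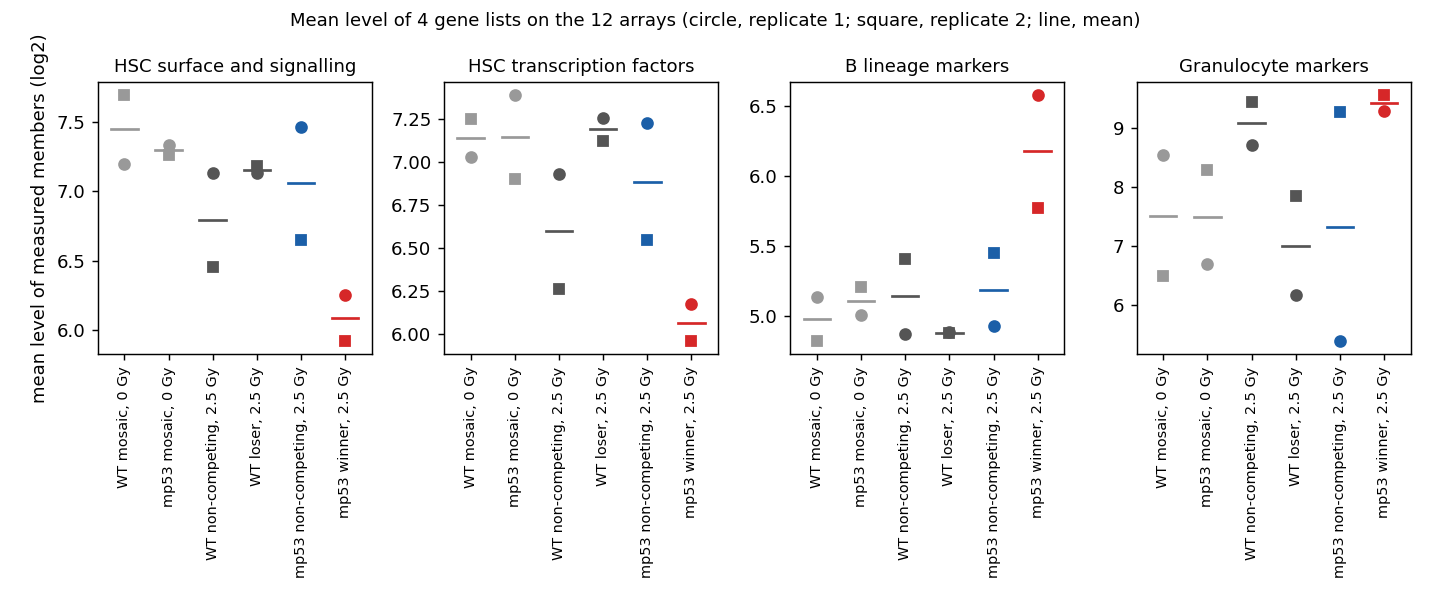
Mean level (log2) of the measured members of 4 gene lists on each of the 12 arrays; circles are replicate 1, squares replicate 2 and lines the mean of each group. Winners are lowest in both HSC lists and highest for B lineage genes (6.58 and 5.77), whereas their granulocyte level (9.29 and 9.56) is close to that of control replicate 2 (9.27) and far above control replicate 1 (5.39). Non-competing WT replicate 2 is the next lowest for HSC transcription factors (6.26, winner replicate 1 at 6.17) and surface genes (6.45, winner replicate 1 at 6.25).

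Granulocyte genes had the largest median of the lists and the widest gap between the replicate medians. All 32 measured members were higher in winners (median 2.08), but the median was 4.02 in replicate 1 and 0.24 in replicate 2, and without control replicate 1 it was 0.05 with 18 of 32 higher. Mpo, the neutrophil peroxidase, was 4.47 in control replicate 1, where it was not detected, 13.32 in control replicate 2, and 12.71 and 12.88 in winners. Ltf, which encodes lactoferrin, was 7.35 and 13.93 against 13.93 and 13.55. For both genes control replicate 1 alone was low and the other 3 arrays lay close together. Pglyrp1, a bactericidal protein of granules, was the granulocyte gene with the most repeatable increase, at 4.38 and 7.84 against 8.38 and 9.24. Elane, which encodes neutrophil elastase, was 4.41 and 6.28 against 5.42 and 7.14, higher by a like amount in each replicate with groups that overlap.

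Monocyte, macrophage and dendritic genes were higher in 26 of 27 measured members (median 1.15, with 1.87 and 0.35 within replicates and 0.43 without control replicate 1). Irf8, a factor for monocyte and dendritic fate, was 4.65 and 7.13 in controls and 8.99 and 7.74 in winners. Cst3, the protease inhibitor cystatin C, was 8.94 and 9.16 against 9.99 and 9.97, and Mrc1, the mannose receptor, was 4.47 and 4.82 against 5.82 and 5.56. For Irf8, Cst3 and Mrc1 both winner arrays were the highest of the 12. Tyrobp, an adaptor of myeloid receptors, was 4.59 in control replicate 1 and 9.96 to 10.35 on the other 3 arrays. Mast cell and basophil genes had a median of 1.36 over 11 members (2.46 and 0.31). That median was 0.59 without control replicate 1, 0.50 over the 6 members detected on all 4 arrays and 0.16, with 11 of 17 higher, with no detection filter. Prg2, the eosinophil major basic protein, was 4.68 and 10.12 in controls and 12.33 and 10.69 in winners, and the basophil protease Mcpt8 was 4.30 and 7.33 against 9.23 and 7.65.

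Erythroid genes were higher in 26 of 33 members, with a median of 0.55 (0.78 and 0.20) that was 0.03 without control replicate 1. Alas2, the first heme enzyme of red cells, was 4.36 and 6.56 in controls and 8.46 and 7.36 in winners. Tfrc, the transferrin receptor, was 4.89 and 7.03 against 7.02 and 7.99, and the globin gene Hba-a1 was 5.16 and 9.93 against 11.07 and 9.73. Only Alas2 of these 3 had both winner arrays above both controls.

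Genes of cell division were higher by more in replicate 1. Of 40 measured G2 and mitosis genes, 38 were higher (median 0.59), but the median was 0.93 in replicate 1 and 0.09 in replicate 2, where 26 of the 40 were higher against 4053 of all 8374 genes, and without control replicate 1 it was -0.01 with 19 of 40 higher. Plk4, the kinase that starts centriole duplication, held up in both replicates, at 6.34 and 6.48 in controls and 7.82 and 7.51 in winners (difference 1.25, SE 0.44). Tacc3, a spindle protein, was 6.34 and 6.07 against 7.02 and 6.89, and Cdc6, a DNA replication gene that licenses origins, was 6.87 and 7.44 against 7.98 and 7.94. For Plk4, Tacc3 and Cdc6 the groups did not overlap. Both winner arrays lay above both controls in 10 of 40 G2 and mitosis genes and 6 of 37 DNA replication genes, against 12.1% of all genes. They lay below both controls in 0 and 4 of them, against 16.8%. DNA replication genes as a list were higher in 21 of 37, with a median of 0.12 (0.10 and 0.13).

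CDK inhibitors and G1 regulators had no common direction, with 8 of 17 higher and a median of -0.01. Ccnd2, the D-type cyclin of HSCs, was 9.26 and 7.48 in controls and 7.71 and 6.48 in winners. E2f2, a factor that drives S phase genes, was 6.06 and 8.11 against 9.80 and 8.45.

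Known p53 targets did not separate winners from controls, both of which carried the mutant. Of 20 measured members, 12 were higher and 8 lower, with a median of 0.08 (0.05 and 0.10). Mdm2, the ligase that degrades p53 and a p53 target, was 9.36 and 9.75 in controls and 9.38 and 9.60 in winners, a difference of -0.07 (SE 0.29). Ccng1, the target cyclin G1, was 7.93 and 7.78 against 8.04 and 7.85. The difference of Mdm2 was smaller than the spread between the arrays of a group, and that of Ccng1 was 0.11 in replicate 1 and 0.07 in replicate 2. Dram1, a p53 target in autophagy, was 4.87 and 7.24 against 7.31 and 7.60, and Xpc, a DNA damage sensor, was 4.88 and 7.83 against 7.42 and 8.37. For Dram1 and Xpc the gap came mostly from control replicate 1. Cdkn1a, which encodes p21, had 2 probes and neither was kept by the detection filter. Among death genes, Bcl2a1a, a member of the BCL2 family that protects blood cells, was detected on both winner arrays (5.96 and 5.36) and on neither control array, at least 2.02-fold higher, though near-identical copies of this gene exist and a probe may not tell them apart. The detection filter kept 1 of 23 BCL2 family and death genes through the winner group alone and 1 through the control group alone. Fadd, the adaptor of death receptors, was 7.67 and 8.32 in controls and 7.09 and 7.61 in winners. Bok, a pro-death member of the family, was 7.43 and 5.30 against 4.94 and 4.99.

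The lists for the TGF-beta response, chromatin and DNA repair lay near all genes, of which 56.2% were lower. Of 22 TGF-beta response genes 14 were lower (median -0.11), of 25 chromatin modifiers 16 were lower (-0.035), and of 34 DNA repair and checkpoint genes 20 were lower (-0.04). Single genes that were lower included Tgfbr3, a TGF-beta co-receptor, at 7.63 and 6.13 in controls and 6.07 and 5.17 in winners, and Smad3, a TGF-beta signal carrier, at 10.24 and 9.61 against 9.31 and 8.97. Bcl11a, a zinc finger factor of lymphoid and stem cells, was 8.73 and 8.02 against 7.44 and 7.45. Hdac3, a histone deacetylase, was 8.42 and 7.71 against 7.51 and 7.10. In each of these 4 genes both winner arrays lay below both controls. Dnmt3b, a DNA methyltransferase, was 10.12 and 8.40 against 8.25 and 7.50, and Phc1, a Polycomb subunit, was 10.15 and 8.75 against 8.53 and 7.90, also without overlap. The repair enzyme Mgmt was 7.88 and 7.72 in controls and 6.09 and 6.75 in winners, lower in both replicates as well. Both winner arrays lay below both controls in 5 of 22 TGF-beta response, 5 of 25 chromatin and 6 of 34 repair genes. The share over all genes was 16.8%. Both lay above both controls in 4, 2 and 1 of these lists' members, against 12.1% of all genes.

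Genes of protein synthesis were lower in replicate 1. Of 51 cytosolic ribosomal protein genes, 43 were lower (median -0.34), but the median was -0.60 in replicate 1 and 0.04 in replicate 2, and without control replicate 1 it was -0.04 with 27 of 51 lower. Under median scaling of the arrays their median was 0.17, where that of all genes was 0.39, so the ribosomal genes stayed below the typical gene while their sign turned. Nucleolar genes for ribosome assembly were lower in 24 of 27 (-0.36, with -0.78 and 0.07), but in 15 of 27 without control replicate 1 (-0.10), and under median scaling 19 of 27 were higher (0.22). Rpl22, a large-subunit protein with a part in lymphocyte development, was the member with the most repeatable decrease, at 7.34 and 6.62 against 6.11 and 5.69. The remaining 22 gene lists of at least 5 measured genes, with TGF-beta, chromatin, DNA repair, DNA replication, lymphoid priming and T and NK lists among them, had medians between -0.15 and 0.59.

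**Figure D5:**
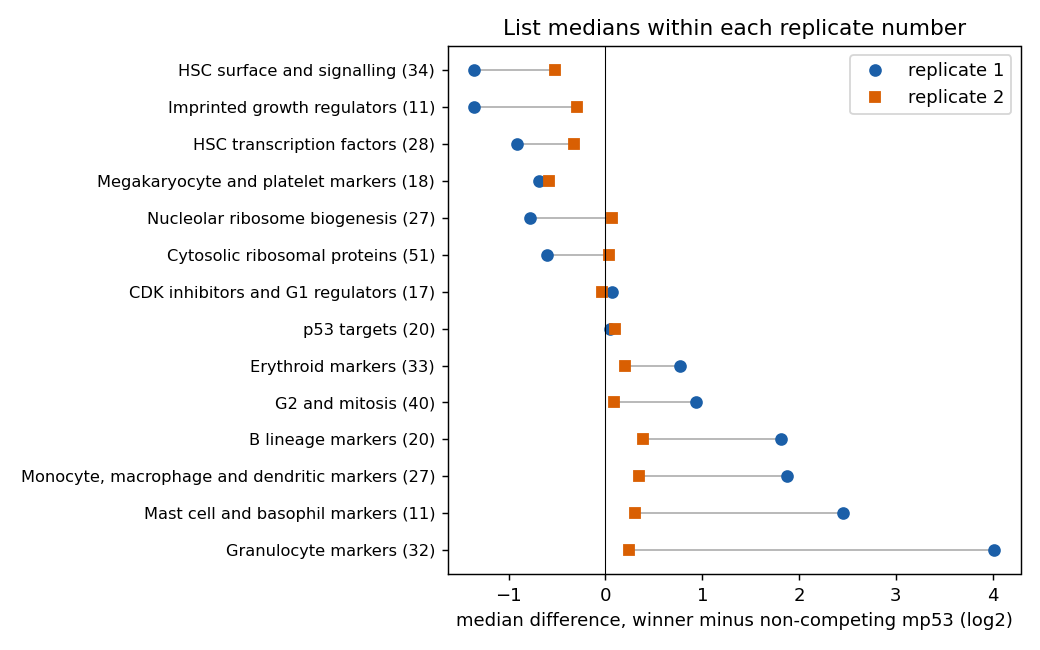
Median winner minus control difference (log2) of 14 gene lists within replicate 1 (circles) and replicate 2 (squares), with the number of measured members in brackets. The HSC and imprinted lists are negative in both replicates, while the granulocyte list drops from 4.02 in replicate 1 to 0.24 in replicate 2.

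Single genes with a repeatable increase fell outside the lineages in part. Igfbp5, which binds insulin-like growth factors, was detected on winner arrays alone among the 12, at 7.13 and 5.52, and was at least 3.21-fold higher (limma adjusted p = 1.00). Its probe passed the detection filter through the winner group alone. Hebp1, a heme-binding protein, was 4.36 and 5.93 in controls and 6.73 and 7.16 in winners. Mid1ip1, a regulator of lipid synthesis, was 4.68 and 4.81 against 5.71 and 5.96, with tight groups that did not overlap. Stom, the membrane protein stomatin, was 4.57 and 6.65 against 7.12 and 7.69. In Igfbp5, Hebp1, Mid1ip1 and Stom the winner arrays were the highest of the 12. Less clear cases were Trappc6b, Ltb4r1, Myl6, Trp53inp2 and Oosp1, which were higher in both replicates but were detected on 1 control array each, with control replicate 2 close to or above winner replicate 1. A dim probe of Anxa2, which encodes a membrane-binding annexin, was among the 5 of smallest p, at 4.22 and 5.56 in controls and 6.75 and 6.49 in winners (1.73, SE 0.40). The brighter Anxa2 probe was 8.79 and 12.41 against 11.94 and 12.48, low on control replicate 1 alone. At least a 2-fold increase in both replicates was found in 11 genes, 0.131% of those measured, against 68 genes with such a decrease.

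The same contrast was made in WT cells, with losers set against non-competing irradiated WT HSCs on 4 other arrays. There the HSC lists lay the other way: transcription factors had a median of 0.61 (0.41 and 0.69) and surface genes 0.45 (0.13 and 0.81). Ndn differed by 1.57, Robo4 by 1.13 and Meis1 by 1.0 between losers and their controls. Granulocyte genes had a median of -2.11 and monocyte genes -1.33, while B lineage genes had -0.19. These arrays were uneven as well. Loser replicate 1 had 9975 detected probes, against 12568 on WT control replicate 1. Mean levels of HSC transcription factors and surface genes were 6.26 and 6.45 on WT control replicate 2, against 6.93 and 7.13 on WT control replicate 1. List medians of this contrast were not recomputed with arrays left out. The test of the difference between the genotypes called 0 of 13512 probes (0%, smallest adjusted p 0.599). At an unadjusted p under 0.05 it had 1051 probes, where 675.6 would be counted if nothing differed. By gene, 16 of 34 HSC surface genes, 15 of 27 monocyte genes and 6 of 28 HSC transcription factors had an unadjusted p under 0.05 in that test, against 8.68% of all genes. So did 12 of 32 granulocyte genes, 12 of 39 immune receptor signalling genes and 6 of 20 B lineage genes. Ndn had the largest of the interactions named here, -5.01 (SE 0.76), with an unadjusted p of 0.000117 in limma.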

How the data were processed

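Illumina bead arrays of 12 samples were read, and the report concerns the 4 arrays of irradiated R26-mp53 cells. For every probe and array the authors deposited a linear intensity with its detection p-value, per the file headers, in 1 non-normalized table for each replicate number (46632 distinct probes). A deposited table of processed intensity values served as an alternative. The scanner software and a genome build are not stated. Value columns left unmatched to an array numbered 0. Detected probes numbered 12444 to 13489 on the 4 arrays, and so few arrays limit the precision.

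The deposited intensities were corrected for background by limma's normexp, using those detection p-values and an offset of 16, then quantile normalized over 12 arrays and taken as log2 (limma 3.58.1, R 4.3.3). A probe was kept if, in at least 1 of the 6 groups, each array gave it a detection p-value under 0.05: 13512 probes, 10246 of them with 1 symbol in the platform annotation, for 8374 genes. Where a probe was kept through the winner group alone, this filter favours a higher level in winners. That held for 3 of 15 stromal and endothelial genes and 4 of 21 cytokine and growth factor receptor genes. The control group alone kept 0 in either list. The brightest kept probe represents a gene. A probe detected on neither array of a group has only a bound there. "At least N-fold" then compares the mean of the detected group with a floor for the other, where each array counts at the lowest value detected on it or at the probe's own value if that is higher.

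A limma model with a mean per group (6 residual degrees of freedom) was tested, two-sided, with Benjamini-Hochberg adjustment over all kept probes. On simulated data of 13512 probes it called 1.52%, 19.4% and 64.2% of probes given a log2 change of 1, 2 and 4, with 4 false calls. The simulated noise was independent between arrays, unlike the real arrays, where those of the same number went together. Of unchanged simulated probes 5.19% had an unadjusted p under 0.05, against 2.92% of the real probes. The simulated rates may therefore not hold for this comparison. Each replicate number holds 1 array of a group, so the differences within it carry no test. Lists are described by counts and medians with no set test. The members and lists were chosen with earlier results of these data known. Genes were named by a rule: the 12 higher and 12 lower with the largest value of the smaller within-replicate difference, the 5 probes of smallest p, up to 5 members a direction of each list by that measure with up to 3 that disagree between replicates, and a few fixed genes. Promoter sequences are from RefSeq (GRCm38.p6). Other normalizations, background corrections, filters, fits and left-out arrays were tried.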

Additional observations from a re-analysis of the deposited data

Results flagged for a closer look

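Gene lists stand here where the winner minus control median and the loser minus control median of WT cells had opposite signs in both replicate numbers. The difference was not tested for lists, and the test by probe called 0. Among the lists described in the report, the winner contrast was -0.88 for HSC surface genes, -0.62 for HSC transcription factors, 0.66 for the gate and progenitor surface, 0.076 for p53 targets, 2.08 for granulocyte, 1.15 for monocyte and 0.55 for erythroid markers, and 0.59 for G2 and mitosis. The loser contrast for these was, in the same order, 0.45, 0.61, -0.46, -0.12, -2.11, -1.33, -0.16 and -0.68. Granulocyte, erythroid and mitosis values in the winner contrast were 0.05, 0.03 and -0.01 without control replicate 1. Of the remaining lists, the winner contrast was 0.17 for BCL2 family and death genes, 0.23 for NF-kB and inflammation, -0.11 for the TGF-beta response, 0.59 for cytokine and growth factor receptors, 0.55 for immune receptor signalling and -0.035 for chromatin modifiers. With 2 arrays a group, no single array could be judged to stand apart from its group.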

How the results depend on the processing

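Of 85 genes named, 77 kept their direction under every alternative that gave them a value and 8 did not. Left-out arrays gave ranges of -0.26 (without control replicate 1) to 0.13 (without control replicate 2) for Mdm2, which was 0.57 under median scaling, -0.0074 (without winner replicate 1) to 0.18 (without winner replicate 2) for Ccng1, and -2.13 to 0.18 for Xist, -0.52 to 8.32 for Mpo, -0.0050 to 1.86 for Elane, -0.19 to 3.42 for Anxa2 (brighter probe), -0.19 to 6.39 for Ltf and -0.12 to 5.56 for Tyrobp, which turned without control replicate 1. The cause was not tested.

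The count of probes at an unadjusted p under 0.05, 394 in the report, was 162 with quantile normalization within each replicate number, 160 from the authors' processed table, 207 over probes detected on all 4 arrays and 1192 with no detection filter. It ran from 89 without control replicate 1 to 1237 without control replicate 2, and was 175 without winner replicate 1. Median scaling called 1 probe, Igfbp5, which the detection filter had kept through the winner group alone, and every other alternative called 0.

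Median scaling moved the median of all genes from -0.05 to 0.39. Under it the median was 0.34 for CDK inhibitors and G1 regulators, 0.70 for p53 targets, 1.18 for erythroid markers, 1.19 for G2 and mitosis, -0.41 for megakaryocyte markers and 0.17 for ribosomal proteins. Megakaryocyte markers were -0.37 in the authors' table, -0.30 with no background correction, -0.33 with a normexp offset of 50 and -0.28 with no detection filter, where p53 targets were 0.037. Over probes detected on all 4 arrays the gate list was -0.072, CDK inhibitors 0.078 and p53 targets 0.14.

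Over the 4 left-out arrays, list medians ran from -1.31 to -0.31 for HSC transcription factors, -1.15 to 0.020 for megakaryocyte markers, -0.14 to 0.17 for CDK inhibitors, -0.023 to 0.25 for p53 targets, 0.11 to 0.90 for the gate list, 0.43 to 2.24 for monocyte markers, 0.025 to 0.96 for erythroid markers and -0.012 to 0.95 for G2 and mitosis. The value without control replicate 1 was the end nearest 0 for HSC transcription factors, megakaryocyte, gate, monocyte, erythroid and mitosis genes.

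With the replicate number as a replicate block, 760 probes had an unadjusted p under 0.05 and 0 were called. No label says what a number marks, though each number has its own deposited table. In 14 of 15 pairs of groups, deviations of same-numbered arrays correlated over 0.1 (0.057 to 0.64, and 0.52 for winner with control). With 2 numbers the main test did not treat them as pairs. The differences within a replicate number, and the genes named by them, do set same-numbered arrays against each other.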
